A study of Homo sapiens with 14 samples.

Results

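The SLC30 family comprised 10 genes, SLC30A1 to SLC30A10, out of the 60624 genes listed in each library. They were found by matching Ensembl identifiers to gene symbols, and all 10 were protein-coding and present in the list. Their RNA was followed in 14 libraries that fell into 9 groups, all from MEL1, a human embryonic stem cell line, and into 3 batches named as such in the sample labels. Batch 1 held 1 library each of undifferentiated cells grown on CF1 feeder cells (hPSC), definitive endoderm (DE), pancreatic progenitors (PP2) and β-like cells differentiated from stem cells without expansion (SC-β). Batch 2 held 2 libraries each of expandable pancreatic progenitors (ePPs) at passages 9 and 21 (ePP-P9, ePP-P21) and of β-like cells made from ePPs (ePP-β). Batch 3 held 2 libraries each of progenitors that received DMSO or 1 μM I-BET151, an inhibitor of BET bromodomain proteins, over 7 days. The ePPs were themselves kept on feeder cells in a medium that contained 1 μM I-BET151, so the drug was present in the ePP-P9 and ePP-P21 groups and not in the DMSO group. The differentiation media from day 12 to day 24, the steps that lead from progenitors to β-like cells, contained 10 μM zinc sulfate. All groups came from 1 line, named MEL1 INS GFP/W in the methods, in which GFP replaces coding sequence of 1 INS allele, and the passage of the ePPs that gave the ePP-β libraries was not given in the sources used here. Nothing stated that replicates were separate cultures, so p-values measure only the spread between these libraries, which may be technical.

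SLC30 proteins, also called ZnT proteins, move zinc out of the cytosol, either across the plasma membrane or into organelles and vesicles. SLC39 proteins (ZIP proteins) bring zinc into the cytosol, and metallothioneins are small proteins that bind it there. The transcription factor MTF1 senses free zinc and switches on the metallothioneins and the exporter SLC30A1 through short promoter sequences called metal response elements. In the pancreatic β cell, SLC30A8 loads zinc into the secretory granules, where insulin is stored as crystals with zinc, and variants of the gene are linked to the risk of type 2 diabetes.

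The levels below are in TPM, a unit of abundance that is relative to the library's total and takes transcript length into account. The read depth behind them is unknown, which leaves the spread between replicates as the only measure of precision. Between 14982 and 17578 genes per library reached 1 TPM. A listed 0 need not mean absence of the RNA, since all 14 libraries gave 0 for each of the 37 mitochondrial genes. The β-like labels were matched by INS, with 10916 and 17374 TPM (ePP-β) and 20657 TPM (SC-β), but GCG, the hormone of α cells, was as high as 14107 and 13360 TPM in ePP-β and 74281 TPM in SC-β. The other 4 β cell markers on the list were IAPP, with 0.463 and 0.538 TPM (ePP-β) and 9.62 TPM (SC-β), MAFA, with 2.05, 1.75 and 0.864 TPM in the same order, G6PC2, with 9.04, 6.59 and 153 TPM, and PCSK1, with 180, 159 and 11.1 TPM. Markers of other cell types were present too. Of the δ cell markers, SST was at 391 and 468 TPM (ePP-β) and 2757 TPM (SC-β), and HHEX at 10.9, 8.37 and 15.5 TPM. HHEX was higher in the progenitors, with 476 TPM in PP2 and between 16.8 and 47.0 TPM in the ePPs. The 3 enterochromaffin cell genes on the list (TPH1, LMX1A, SLC18A1) summed to 314 and 428 TPM (ePP-β) and 131 TPM (SC-β). In bulk RNA a difference in the number of cells of a type and a difference in RNA per cell cannot be told apart.

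SLC30A5, SLC30A6, SLC30A7, SLC30A9 and SLC30A1 were expressed at more than 1 TPM in all 14 libraries. SLC30A8, SLC30A4 and SLC30A10 reached 1 TPM in 9, 8 and 6 libraries, SLC30A3 in 2 and SLC30A2 in 0. Apart from SLC30A8, the family summed to between 66.5 TPM in hPSC and 165.8 TPM in ePP-β replicate 2. SLC30A9 or SLC30A5 was the most abundant of these 9 members in each of the 14 libraries, with a share between 28.5% and 38.7%. SLC30A8 made up at most 3.03% of the family sum in the 11 libraries that were not β-like cells. In the β-like cells it made up 75.9% and 73.9% of it in ePP-β and 45.1% in SC-β.

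**Figure D1:**
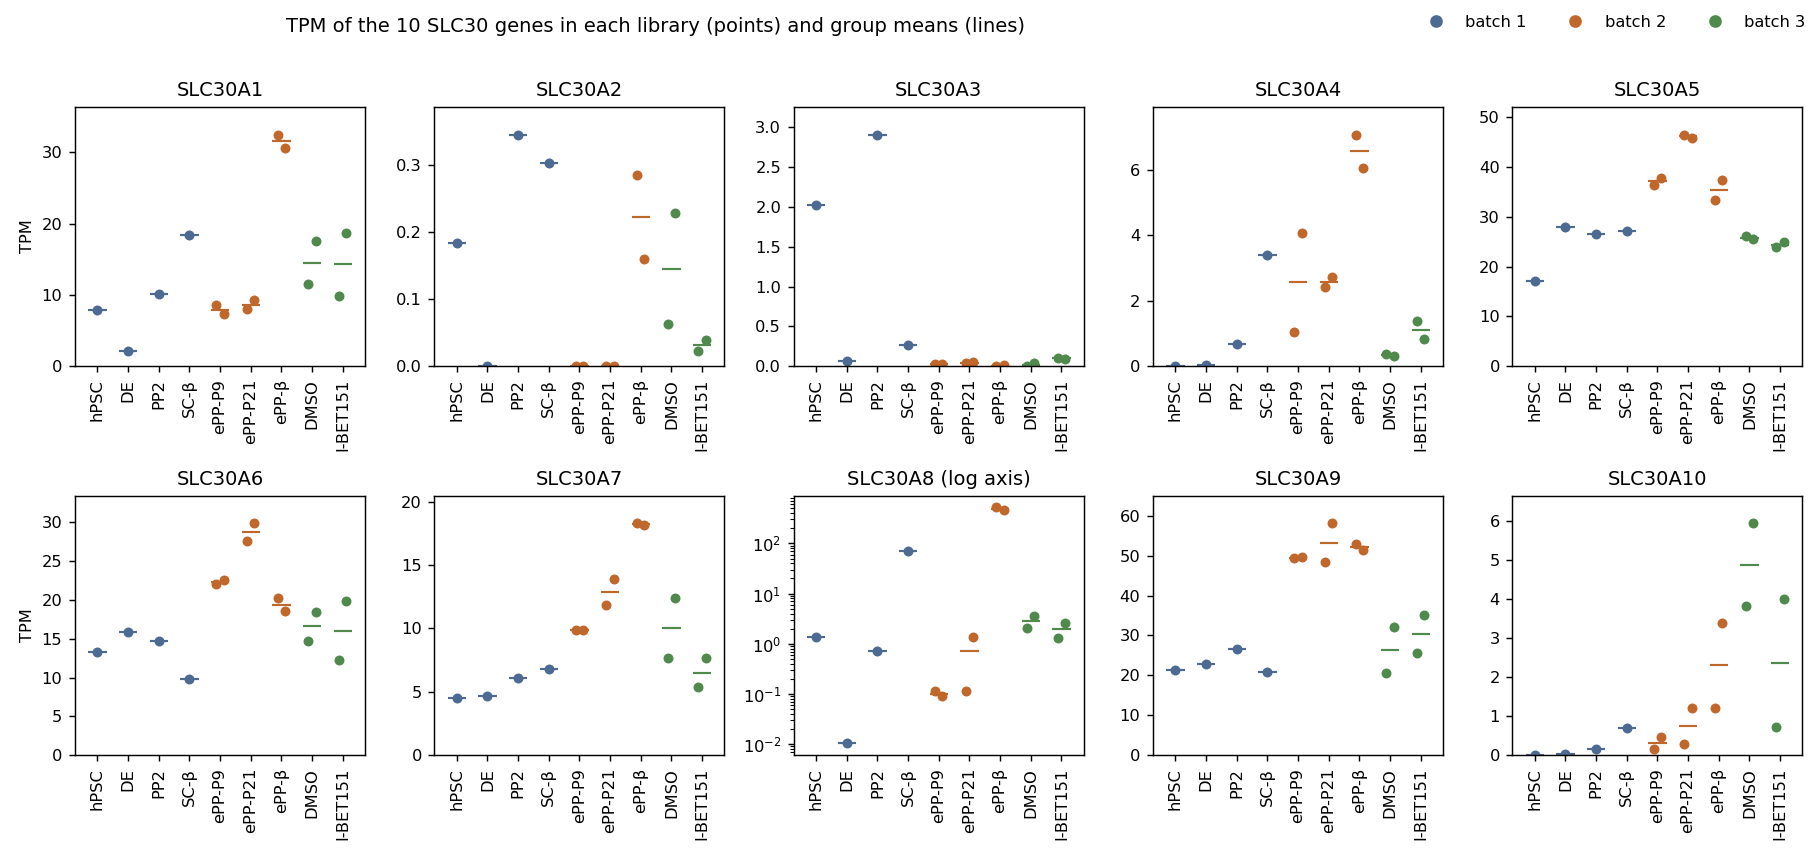
TPM of each SLC30 gene (vertical axis, with a log axis for SLC30A8 only) in the 14 libraries, as points coloured by batch, with a line at each group's mean. SLC30A8 reaches 522 TPM (ePP-β) and 72.1 TPM (SC-β) against at most 3.52 TPM elsewhere, while SLC30A5, SLC30A6 and SLC30A9 are present in every library.

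**Figure D2:**
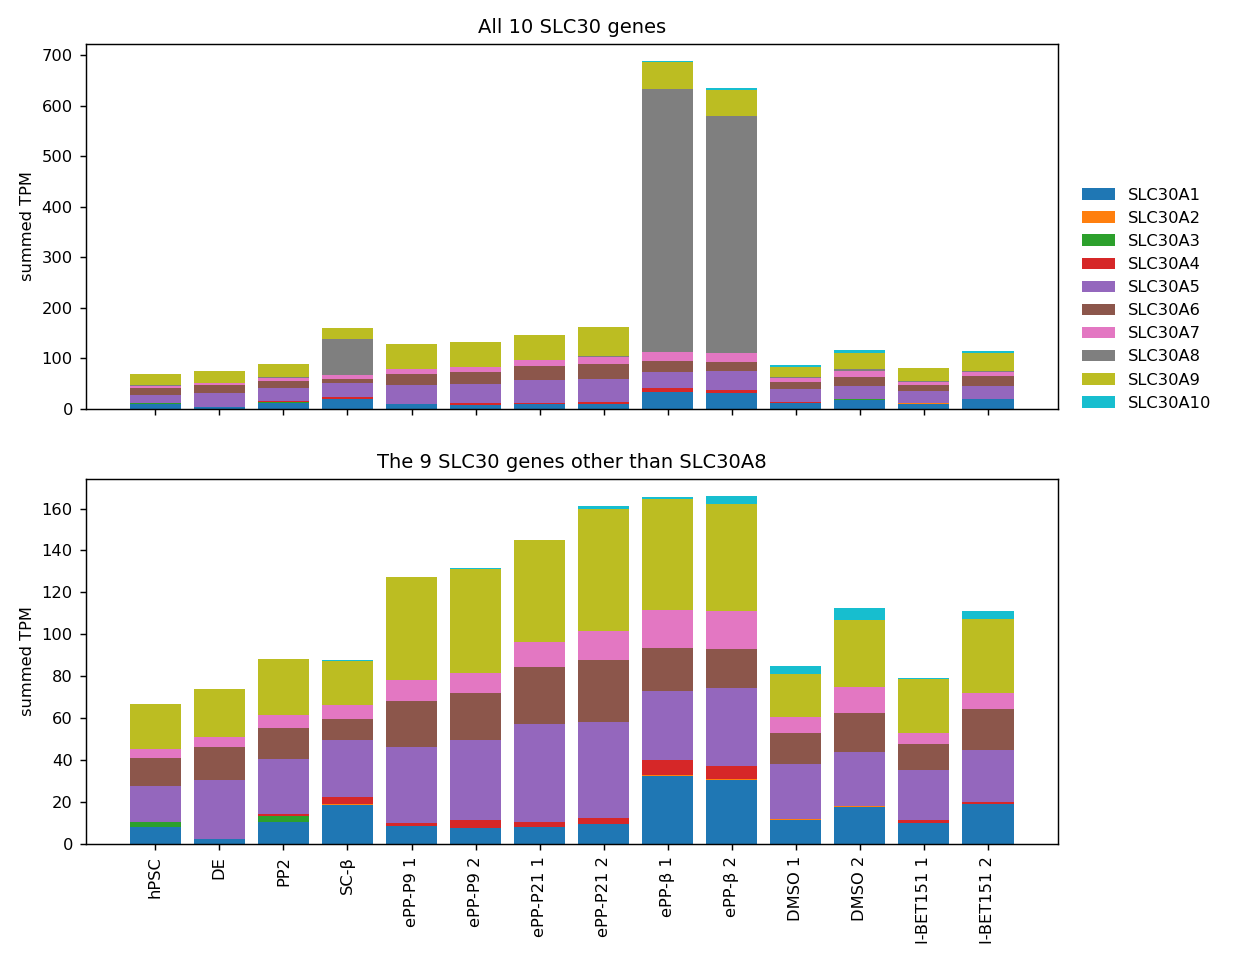
Summed TPM of the SLC30 genes in each library, as bars stacked by gene, for all 10 genes (top) and for the 9 genes other than SLC30A8 (bottom). SLC30A8 fills most of the ePP-β bars, and without it the 2 ePP-β libraries reach 165.7 and 165.8 TPM, next to 161 TPM in ePP-P21 replicate 2.

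SLC30A8 (ENSG00000164756, chromosome 8, 116950273 to 117176714, plus strand, GRCh38) encodes the zinc transporter of the insulin granule. The ePP-β libraries had 522 and 468 TPM and the SC-β library 72.1 TPM. The ePPs had 0.113 and 0.0903 TPM (ePP-P9) and 0.113 and 1.35 TPM (ePP-P21). Every ePP-β library was thus far above every ePP library, and within the ePPs 1 library of passage 21 stood above the other 3. It was at 1.34 TPM in hPSC, 0.0103 TPM in DE and 0.706 TPM in PP2. In batch 3 the DMSO libraries had 2.08 and 3.52 TPM and the I-BET151 libraries 1.29 and 2.56 TPM, so that these groups overlapped. Along the 9 group means, ePP-β came first and SC-β next, each separated from the following group by more than the larger SD, whereas the steps from DMSO through I-BET151, hPSC and ePP-P21 to PP2 lay within it. Other genes that overlap SLC30A8 on the same strand were listed at no more than 2.85 TPM.

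Between ePP-β and ePP, SLC30A8 rose by 8.54 ± 0.30 (SE) on the log2(TPM + 1) scale (limma, adjusted p = 1.14e-05). It remained called in all 18 alternative settings. The other granule genes on the list, namely INS, the granins CHGA and CHGB, and the prohormone-processing enzymes PCSK1, PCSK2 and CPE, were also called higher, which made 6 of 6, where 29.2% of all genes tested were called higher. SLC30A8, INS, PCSK1, PCSK2 and CHGB passed the filter on low values only through the ePP-β libraries, so that they had to differ, and CHGA and CPE passed it on both sides.

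Relative to 5 of the 6 granule genes, including CHGA and INS, SLC30A8 was higher in both ePP-β libraries than in SC-β, and relative to PCSK1 it was lower. Per 1000 TPM of CHGA, a general granule protein, SLC30A8 had 32.6 and 31.5 TPM (ePP-β) and 4.46 TPM (SC-β). Per 1000 TPM of INS it had 47.8 and 27.0 TPM (ePP-β) and 3.49 TPM (SC-β). CHGA itself was at 16017, 14843 and 16156 TPM in the same order. The ratio of GCG to INS was 1.29 and 0.769 in ePP-β and 3.60 in SC-β, and the summed TPM of 4 mesenchyme genes (COL1A1, COL3A1, THY1, PDGFRB) was 40.05 and 30.7 in ePP-β and 2167 in SC-β. The ratio of SLC30A8 to PCSK1 turned the other way, at 2.89 and 2.95 in ePP-β and 6.52 in SC-β. SC-β is 1 library of another batch, so the route cannot be told apart from the batch, and these differences are given without a test. Of the 9 members that reached 1 TPM in 2 or more libraries of the series, 8 were higher in both ePP-β libraries than in SC-β and SLC30A3, under 1 TPM in all 3, was lower. Of all 20582 genes that met the same filter, 49.4% were higher in both and 38.2% lower in both.

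SLC30A1 (ENSG00000170385, chromosome 1, 211571568 to 211579161, minus strand) encodes the exporter of the plasma membrane. It was at 32.5 and 30.6 TPM in ePP-β. The ePP libraries lay at 8.53 and 7.31 TPM (ePP-P9) and 7.98 and 9.35 TPM (ePP-P21), so that every ePP-β library exceeded every ePP library. The log2 difference was 1.81 ± 0.13 (SE, adjusted p = 0.000106), and the ratio of the means was 3.80. The call held in all 18 alternative settings, with log2 differences between 1.68 and 1.93. In batch 1, SLC30A1 was at 7.96 TPM in hPSC, 2.14 TPM in DE, 10.2 TPM in PP2 and 18.4 TPM in SC-β. DE thus had the lowest level of all 14 libraries and SC-β the highest of its batch. The DMSO libraries had 11.5 and 17.6 TPM and the I-BET151 libraries 9.91 and 18.7 TPM, which overlap fully. In the order of the group means, ePP-β stood above SC-β by more than the larger SD, while the steps from SC-β through DMSO and I-BET151 to PP2 lay within it.

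The promoters of SLC30A1, of the vesicular member SLC30A2 and of 2 metallothionein genes are shown because they held matches to the core of the metal response element. The sequences are the 250 bases before the start of each gene (RefSeq, GRCh38.p14), written 5′ to 3′ on the strand of the gene. Capitals mark matches to the core TGCACNC or TGCGCNC on either strand, with N for any base, and overlapping matches would run together. SLC30A1 lies on the minus strand at chr1:211579162-211579411, SLC30A2 on the minus strand at chr1:26046119-26046368, MT2A on the plus strand at chr16:56608334-56608583 and MT1X on the plus strand at chr16:56682220-56682469.
SLC30A1: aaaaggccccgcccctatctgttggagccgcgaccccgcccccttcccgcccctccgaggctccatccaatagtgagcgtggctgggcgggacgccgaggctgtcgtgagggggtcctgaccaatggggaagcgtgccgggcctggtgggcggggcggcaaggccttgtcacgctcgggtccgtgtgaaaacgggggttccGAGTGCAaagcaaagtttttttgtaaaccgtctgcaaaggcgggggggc
SLC30A2: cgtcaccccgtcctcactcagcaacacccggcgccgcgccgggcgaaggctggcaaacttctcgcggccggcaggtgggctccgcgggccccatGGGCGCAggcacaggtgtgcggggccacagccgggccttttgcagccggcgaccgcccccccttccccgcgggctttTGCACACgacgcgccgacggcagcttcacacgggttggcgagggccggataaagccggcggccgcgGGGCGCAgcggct
MT2A: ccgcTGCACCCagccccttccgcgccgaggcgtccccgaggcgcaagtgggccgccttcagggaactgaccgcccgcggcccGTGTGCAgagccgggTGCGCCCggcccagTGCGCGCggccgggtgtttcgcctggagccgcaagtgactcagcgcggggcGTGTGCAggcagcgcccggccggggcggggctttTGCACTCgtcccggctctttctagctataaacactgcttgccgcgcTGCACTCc
MT1X: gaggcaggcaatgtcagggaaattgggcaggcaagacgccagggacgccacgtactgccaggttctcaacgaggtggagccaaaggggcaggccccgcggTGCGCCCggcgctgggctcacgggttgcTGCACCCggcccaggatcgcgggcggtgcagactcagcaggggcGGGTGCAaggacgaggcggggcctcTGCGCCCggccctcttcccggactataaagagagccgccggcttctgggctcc
SLC30A1 held 1 match, SLC30A2 held 3, MT1X held 4 and MT2A held 7. Of 35116 promoter windows of the same length, 24.8% held at least 1 match, 6.48% at least 2 and 1.58% at least 3. Among the 9 SLC30 genes with a window, 5 held at least 1 match, and the other 4 (SLC30A5, SLC30A7, SLC30A9 and SLC30A10) held none. All 5 metallothionein genes with a window held at least 3. A match is a description of the letters and not a mapped site, and SLC30A8 had no window in the table used here.

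The metallothioneins were therefore read beside SLC30A1. Their summed level over 11 genes was 868 TPM in hPSC, 30.3 TPM in DE, 91.97 TPM in PP2 and 136 TPM in SC-β. In the ePPs the sum was at most 0.638 TPM, with 9 to 11 of the 11 genes listed at 0. In ePP-β it was 146 and 177 TPM. The sum was high in hPSC, where SLC30A1 was not, and nearly absent in the ePPs, where SLC30A1 was at 7.31 to 9.35 TPM. Of the 11 genes, 5 were tested in ePP-β against ePP and all 5 were called higher (29.2% of all genes tested), by 3.20 (MT1E) to 5.82 (MT1X) on the log2 scale. These passed the filter only through ePP-β, so that they had to differ. MT1X rose from at most 0.0156 TPM to 49.3 and 62.9 TPM, and MT2A from at most 0.189 TPM to 19.5 and 34.7 TPM. In batch 3 the sums were 1.31 and 3.62 TPM (DMSO) and 4.30 and 18.3 TPM (I-BET151). MTF1 had a log2 difference of -0.22 between ePP-β and ePP with an adjusted p of 0.326. MT genes are close copies of one another, so reads may have been divided among them in a way that the files do not show.

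**Figure D3:**
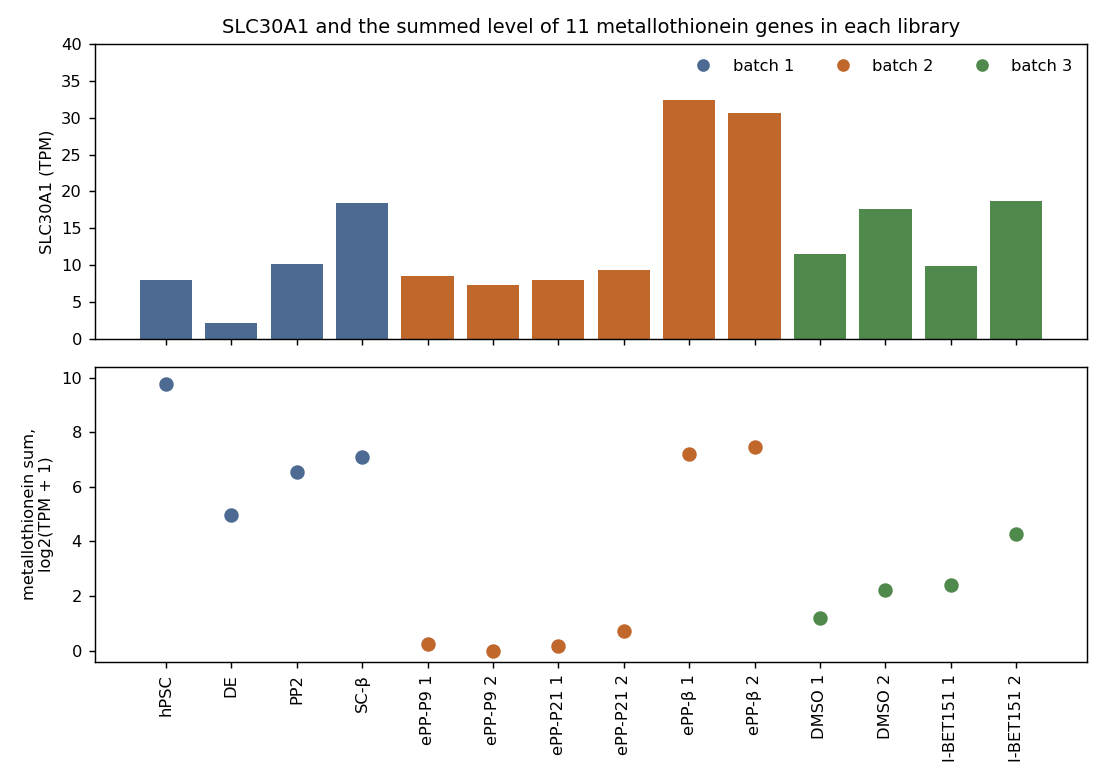
SLC30A1 in TPM (top, bars) and the summed level of 11 metallothionein genes as log2(TPM + 1) (bottom, points) in each of the 14 libraries, coloured by batch. Both are high in the 2 ePP-β libraries, whereas hPSC has the highest metallothionein sum, 868 TPM, with SLC30A1 at 7.96 TPM.

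SLC30A10 (ENSG00000196660, chromosome 1, 219685427 to 219959018, minus strand) is an exporter of the plasma membrane that carries manganese as well as zinc. It was highest in batch 3, where DMSO gave 3.82 and 5.94 TPM and I-BET151 gave 0.714 and 4.01 TPM. It was at 0.148 and 0.463 TPM (ePP-P9), 0.282 and 1.22 TPM (ePP-P21), and 1.22 and 3.39 TPM in ePP-β. Outside the DMSO group, replicates thus differed by more than 2-fold, and the ePP-β and ePP-P21 libraries met at 1.22 TPM. The batch 1 libraries had 0.0171 TPM (hPSC), 0.0263 TPM (DE), 0.165 TPM (PP2) and 0.694 TPM (SC-β). The log2 difference of ePP-β against ePP was 1.08 ± 0.36 (SE, adjusted p = 0.0428), but the gene passed the filter only through ePP-β, and the call was lost in 10 of 17 alternative settings. Of the 5 manganese transport genes on the list, 4 were called higher in ePP-β, namely SLC30A10, SLC39A14 (a manganese and zinc importer), ATP2C1 (a calcium and manganese pump of the Golgi) and SLC11A2 (a divalent metal importer), by 0.51 to 1.08, against 29.2% of all genes tested.

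SLC30A5, SLC30A6 and SLC30A7 supply zinc to enzymes of the early secretory pathway. SLC30A5 and SLC30A6 work as a heterodimer, and SLC30A7 works as a homodimer. SLC30A5 (ENSG00000145740, chromosome 5, 69093991 to 69131069, plus strand) was at 36.4 and 37.8 TPM (ePP-P9), 46.4 and 45.8 TPM (ePP-P21) and 33.3 and 37.3 TPM (ePP-β). In batch 1 it was at 17.2 TPM (hPSC), 27.9 TPM (DE), 26.4 TPM (PP2) and 27.2 TPM (SC-β), and in batch 3 it stayed between 23.8 and 26.1 TPM. It varied the least of all members, with 2.71 times between the lowest and the highest library. Its log2 difference of ePP-β against ePP was -0.23 ± 0.08 (SE, adjusted p = 0.0601), and the ranges overlapped.

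SLC30A6 (ENSG00000152683, chromosome 2, 32165841 to 32224379, plus strand) was at 22.1 and 22.5 TPM (ePP-P9), 27.5 and 29.9 TPM (ePP-P21) and 20.2 and 18.6 TPM (ePP-β). In batch 1 its levels were 13.3 TPM (hPSC), 15.9 TPM (DE), 14.7 TPM (PP2) and 9.75 TPM (SC-β). DMSO had 14.7 and 18.5 TPM and I-BET151 12.3 and 19.8 TPM. Both ePP-β libraries were below all 4 ePP libraries, and the log2 difference was -0.37 ± 0.09 (SE, adjusted p = 0.0169). SLC30A6 was the only member called lower in ePP-β, and the call was lost in 6 of 18 alternative settings. The ratio of SLC30A5 to its partner SLC30A6 lay between 1.26 and 2.01 in 13 libraries and at 2.79 in SC-β. SLC30A6P1, a processed copy of SLC30A6 elsewhere in the genome, was near 0 in all libraries, and how the counting divided reads between the copies is not known.

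SLC30A7 (ENSG00000162695, chromosome 1, 100896076 to 100981757, plus strand) went the other way. It was at 9.84 and 9.89 TPM (ePP-P9), 11.8 and 13.9 TPM (ePP-P21) and 18.3 and 18.1 TPM (ePP-β), with no overlap between ePP-β and ePP. Batch 1 had 4.54 TPM (hPSC), 4.67 TPM (DE), 6.06 TPM (PP2) and 6.84 TPM (SC-β). DMSO had 7.68 and 12.4 TPM and I-BET151 5.38 and 7.65 TPM, where the ranges did not overlap, although 7.68 and 7.65 TPM were close. The log2 difference of ePP-β against ePP was 0.65 ± 0.12 (SE, adjusted p = 0.00441), and the ratio of the means was 1.60. Among 18 alternative settings the call was lost in the fit of all 10 replicated libraries (adjusted p = 0.0595, the highest) and with the fold threshold of the study. The ratio of SLC30A5 to SLC30A7 was between 3.29 and 3.92 in the ePPs and 1.82 and 2.06 in ePP-β. In batch 1 this ratio was 3.78 (hPSC), 5.98 (DE), 4.37 (PP2) and 3.97 (SC-β). DMSO had ratios of 3.40 and 2.06, and I-BET151 had 4.43 and 3.26.

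SLC30A2, SLC30A3 and SLC30A4 load zinc into vesicles, SLC30A3 chiefly in neurons and SLC30A2 and SLC30A4 in secretory cells such as those of the mammary gland. SLC30A4 (ENSG00000104154, chromosome 15, 45479606 to 45522755, minus strand) had 7.07 and 6.06 TPM (ePP-β) and 3.39 TPM (SC-β). In ePP-P9 it was at 1.04 and 4.08 TPM, a wider spread than in ePP-P21, with 2.41 and 2.72 TPM. Batch 1 gave a listed 0 (hPSC), 0.0383 TPM (DE) and 0.673 TPM (PP2). Thus all β-like libraries stood above PP2, and both ePP-β libraries stood above the 4 ePP libraries. The log2 difference of ePP-β against ePP was 1.16 ± 0.37 (SE, adjusted p = 0.0369), a call that was lost in 10 of 18 alternative settings. In batch 3, SLC30A4 had values of 0.370 and 0.322 TPM (DMSO) and 1.38 and 0.825 TPM (I-BET151), higher in both I-BET151 libraries but too low to be tested. HMGN2P46, a pseudogene on the opposite strand within SLC30A4, was listed at up to 0.749 TPM, and without a known use of strand its reads cannot be told apart from those of SLC30A4.

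SLC30A3 (ENSG00000115194, chromosome 2, 27253684 to 27275817, minus strand) was at 2.02 TPM in hPSC and 2.90 TPM in PP2. Everywhere else it stayed under 0.3 TPM, with 0.274 TPM in SC-β and 0.0624 TPM in DE. SLC30A2 (ENSG00000158014, chromosome 1, 26037252 to 26046118, minus strand) did not exceed 0.346 TPM, its value in PP2, and was listed at 0 in DE and in all 4 ePP libraries. Neither gene passed the filter of 1 TPM in any of the 3 tested comparisons.

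SLC30A9 (ENSG00000014824, chromosome 4, 41990502 to 42090461, plus strand) encodes a zinc exporter of mitochondria. It was at 49.3 and 49.6 TPM (ePP-P9), 48.5 and 58.1 TPM (ePP-P21) and 52.9 and 51.5 TPM (ePP-β). These 6 libraries of batch 2 were above the other 8, which lay between 20.5 and 35.2 TPM, and since batch 2 holds only ePPs and their progeny, batch and cell type cannot be told apart. Batch 1 had 21.4 TPM (hPSC), 22.9 TPM (DE), 26.7 TPM (PP2) and 20.95 TPM (SC-β). DMSO had 20.5 and 32.1 TPM and I-BET151 25.5 and 35.2 TPM. Its log2 difference of ePP-β against ePP was 0.03, with a 95% confidence interval from -0.20 to 0.26 (adjusted p = 0.823), and the sign turned after median centring (-0.11).

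The comparison of ePP-β with ePP asked what changes as ePPs become β-like cells. In it, 8 of the 10 members were tested, of which 5 were called higher (SLC30A1, SLC30A4, SLC30A7, SLC30A8 and SLC30A10) and 1 lower (SLC30A6). Of all 18076 genes tested, 29.2% were called higher and 28.2% lower. With a log2 difference beyond 1 in size as well, 4 members were higher and 0 lower, against 17.9% and 9.86% of all genes. The median log2 difference was 0.86 for the tested members and -0.03 for all genes. The higher calls and the median of the members include SLC30A8 and SLC30A10, which passed the filter only through ePP-β. The 6 members with at least 1 TPM in at least 2 libraries of each side gave 3 higher, 1 lower and a median of 0.34. No share or median of all genes was taken under this stricter filter, so these values have no background beside them. Of the 26 zinc-handling genes (14 SLC39 genes, 11 metallothioneins and MTF1), 18 were tested, 10 were called higher and 3 lower. The 5 metallothioneins among the higher calls passed the filter only through ePP-β, so that they had to differ. Of the 12 SLC39 genes tested, 5 were called higher and 3 lower, and MTF1 was not called. Beside the 5 metallothioneins, the importers SLC39A4 (2.11), SLC39A5 (1.25), SLC39A13 (0.60), SLC39A9 (0.59) and SLC39A14 (0.51) rose, whereas SLC39A10 fell by 2.39, SLC39A3 by 0.65 and SLC39A1 by 0.43. SLC39A10, a plasma membrane importer, was between 143 and 169 TPM in the 4 ePP libraries and at 29.2 and 27.9 TPM in ePP-β.

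These calls depended on the libraries to different degrees. SLC30A4, SLC30A6 and SLC30A10 together lost their calls without ePP-β replicate 2, which left 3 members called, and the zinc-handling calls fell from 13 to 7 without either ePP-β library. SLC30A4 also lost its call without ePP-β replicate 1 or either ePP-P21 library, SLC30A6 without either ePP-P9 library, and SLC30A10 without either ePP-P9 library or ePP-P21 replicate 1. Quantile normalization moved the median of all genes from -0.03 to -0.19, under which SLC30A1 had a log2 difference of 1.78.

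**Figure D4:**
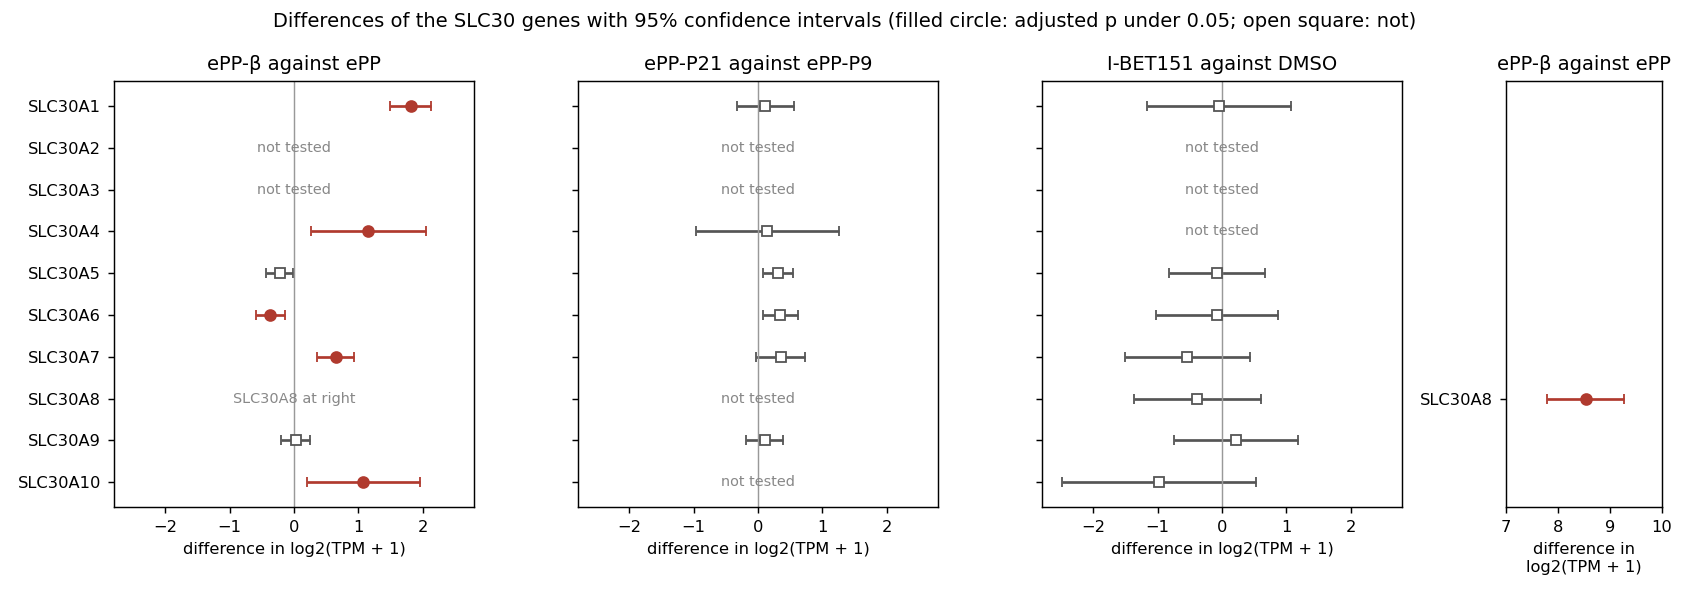
Differences in log2(TPM + 1) of the SLC30 genes in the 3 comparisons with replicates (horizontal axis), as points with 95% confidence intervals, filled where the adjusted p was under 0.05. SLC30A8 in ePP-β against ePP has its own axis at 8.54, SLC30A1 stands at 1.81, and no member is filled in the other 2 comparisons.

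The comparison of ePP-P21 with ePP-P9 asked whether expression held over passages. It tested 6 members, of which 0 were called (limma) and 2 had an unadjusted p under 0.05, as had 3641 of all 15822 genes. Of all 15822 genes, 1.82% were called higher and 0.133% lower (288 and 21 genes), which became 12 and 4 genes after quantile normalization and 0 and 0 after median centring. SLC30A5 and SLC30A6, the heterodimer, had the 2 unadjusted results. SLC30A5 was higher by 0.31 (95% interval 0.07 to 0.54, adjusted p = 0.139) and SLC30A6 by 0.35 (0.07 to 0.63, adjusted p = 0.151). SLC30A7, which is not part of the heterodimer, was higher by a similar 0.35 (-0.03 to 0.73, adjusted p = 0.252). SLC30A5, SLC30A6 and SLC30A7 did not overlap between passages, but the share of all genes without overlap was not counted. All 6 differences were positive, with a median of 0.23 against 0.13 for all genes, but those of SLC30A1, SLC30A4 and SLC30A9 turned negative after quantile normalization or median centring. Either step moved the median of all genes to below 0 (-0.03 and -0.07). Of 13 zinc-handling genes tested, 0 were called and 5 had an unadjusted p under 0.05 (3641 of all 15822 genes).

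The comparison of I-BET151 with DMSO asked which genes respond to the inhibitor in progenitors. It tested 7 members, of which 0 were called and 0 had an unadjusted p under 0.05 (limma). Of all 16687 genes, 0.00599% were called higher and 0.204% lower. The median log2 difference was -0.08 for the members and 0.16 for all genes. Intervals were wide. SLC30A5 had -0.08 (95% interval -0.83 to 0.67, adjusted p = 0.930), SLC30A1 -0.05 (-1.17 to 1.07, adjusted p = 0.969) and SLC30A10 -0.98 (-2.48 to 0.52, adjusted p = 0.496). Differences within these intervals are not excluded. With 2 libraries a group, larger differences also went uncalled, such as -3.57 for SLC39A4 (adjusted p = 0.0651). Without I-BET151 replicate 2, SLC30A10 was called lower (-1.75, adjusted p = 0.0447), against adjusted p up to 0.932 over its 13 alternative settings. SLC30A1 and SLC30A6 turned positive without DMSO replicate 2 or I-BET151 replicate 1, and SLC30A9 turned negative without DMSO replicate 1 or I-BET151 replicate 2. Of 15 zinc-handling genes tested, 0 were called and 4 had an unadjusted p under 0.05, as had 2536 of all 16687 genes. Among the 4, SLC39A8 passed the filter only through DMSO, so that it had to differ. The number called was 4 in the joint fit of all 10 replicated libraries. There, 901 of 19179 genes were called higher and 1322 lower. It was 1 after quantile normalization or median centring. Those settings called 3 and 1 of all genes higher and 135 and 119 lower. With a pseudocount of 0.1 or 0.01, or with no filter, 0 of all genes were called. Leaving out single libraries also moved the number of zinc-handling genes called. The summed TPM of 5 liver genes (ALB, AFP, APOA1, TF, SERPINA1) was 10138 and 8273 in DMSO and 1248 and 2834 in I-BET151, and its part in these results was not tested.

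The stages of batch 1 had 1 library each, so their differences have no replicate check. From hPSC to DE, 0 of the 9 members used rose past a log2 difference of 1 and 3 fell past it (SLC30A1, SLC30A3 and SLC30A8), against 8.18% and 12.3% of all 20582 genes used. The metallothioneins went the same way, with 7 of 7 below. From DE to PP2, 2 members rose past it (SLC30A1 by 1.83 and SLC30A3 by 1.88) and 0 fell, against 23.8% and 7.63% of all genes. From PP2 to SC-β, 2 rose (SLC30A8 by 5.42 and SLC30A4 by 1.39) and 1 fell (SLC30A3 by 1.62), against 10.7% and 19.8%.

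PP2 and the ePPs are both progenitors but come from different batches. All 4 ePP libraries were above PP2 for 5 members (SLC30A4, SLC30A5, SLC30A6, SLC30A7 and SLC30A9) and below it for 3 (SLC30A1, SLC30A2 and SLC30A3), while SLC30A8 and SLC30A10 lay on both sides. Among the 9 members that reached 1 TPM in 2 or more libraries of the series, which leaves out SLC30A2, 5 were above and 2 below, against 27.7% and 47.6% of the 20582 genes that met this filter. Culture and batch cannot be told apart in these differences.

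For 7 members with a group mean of at least 5 TPM, the genes with the most similar pattern over the 9 group means were sought among 13461 protein-coding genes, by Pearson's r of log2(TPM + 1). The closest to SLC30A8 were CADM2 (r = 0.990), C1orf232 (0.988) and SLITRK1 (0.987). SLC30A1 was closest to PPCS (0.976), SLC30A4 to GCA (0.984), SLC30A5 to CALB1 (0.977), SLC30A6 to PIK3C2A (0.989), SLC30A7 to NMD3 (0.976) and SLC30A9 to RAB3GAP1 (0.988). These values describe 9 points that share batches and carry no test.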

How the data were processed

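RNA-seq was carried out on 14 libraries of the MEL1 line. The authors aligned reads to GRCh38 with HISAT2 2.1.0, assembled transcripts with StringTie and deposited TPM per gene. The annotation release and strand use were not given in the sources used here. Symbols came from GENCODE 44, which matched 60370 of 60624 identifiers. TPM values were transformed as log2(TPM + 1), which understates changes of low genes. Linear models were fitted with limma 3.58.1 (intensity trend, two-sided, Benjamini-Hochberg adjustment over all genes tested) within 1 batch, on genes that reached 1 TPM in 2 or more libraries of the fit. For ePPs, both passages were given equal weight. A gene was called at an adjusted p under 0.05. The study's DESeq2 test takes counts and was not used. The code was tested on simulated data. ± denotes SE where stated. Alternatives were other pseudocounts, filters, scalings and thresholds, no intensity trend, a replicate block, 1 joint fit and leaving out libraries, and contrasts against ePP-P9 or ePP-P21 alone were chosen after seeing the data. Named genes were all 10 members, zinc-handling genes by count and singly where called, and listed alkaline phosphatase, manganese, granule and other zinc genes. Members and lists were chosen with earlier results of these data known.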

Additional observations from a re-analysis of the deposited data

How the results depend on the processing

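TPM keeps no depth, and with 2 libraries a group the spread sets what could be called. Counts of called members stayed within 1.5 times except in ePP-β against ePP with all 10 replicated libraries in 1 fit (3 against 6) and on leaving out single libraries (3 to 5), and in I-BET151 against DMSO on leaving out single libraries (0 to 1). In 28 combinations of member and setting, a member kept its direction but lost its call. Zinc-handling calls in I-BET151 against DMSO were 1 after quantile normalization, 1 after median centring, 4 in the joint fit and 6 with the replicate block, against 0. Leaving out single libraries moved them as well. Calls over all genes also rose, from 1 higher and 34 lower to 1477 and 1712 with the replicate block. They were 901 and 1322 in the joint fit, 3 and 135 after quantile normalization and 1 and 119 after median centring. In other settings they fell, to 0 and 0 with a pseudocount of 0.1 or 0.01 and with no filter. Same-numbered libraries share only a number in the labels. Their deviations correlated at r = 0.675 for DMSO and I-BET151 and between -0.009 and 0.042 among the ePP groups. With the replicate block, called members stayed at 0, 0 and 6 in the 3 comparisons. In ePP-P21 against ePP-P9, zinc-handling calls were 1 with a filter of 5 TPM and 0 to 1 without single libraries. In ePP-β against ePP they were 8 with the study's fold threshold and 7 to 13 without single libraries. From DE to PP2, 5 members passed a 2-fold difference with a pseudocount of 0.1 and 1 with a filter of 5 TPM, against 2. Signs turned, the causes not tested, for SLC30A1 (-0.0909), SLC30A4 (-0.106) and SLC30A9 (-0.00757) in ePP-P21 against ePP-P9 after quantile normalization, and after median centring (-0.0902, -0.0597 and -0.105). In ePP-β against ePP, SLC30A9 turned after median centring (-0.11) and against ePP-P21 alone (-0.0235), a contrast chosen after seeing the data. Without single libraries the log2 difference ranged in I-BET151 against DMSO from -0.48 to 0.37 (SLC30A1), -0.40 to 0.25 (SLC30A6) and -0.10 to 0.53 (SLC30A9), in ePP-P21 against ePP-P9 from -0.51 to 0.80 (SLC30A4) and -0.0274 to 0.228 (SLC30A9), and in ePP-β against ePP from -0.0371 to 0.0903 (SLC30A9).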

Other observations

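Some zinc importers and alkaline phosphatases had higher values in DMSO than in I-BET151, and others did not. Of 12 SLC39 genes tested, 0 were called (limma) and 3 had an unadjusted p under 0.05 (SLC39A4, SLC39A5 and SLC39A8). Of the 12, 9 had a negative and 3 a positive log2 difference. Of 2 alkaline phosphatase genes tested, 0 were called and 2 had an unadjusted p under 0.05. Among all 16687 genes, 2536 had an unadjusted p under 0.05 and 6517 a negative log2 difference. SLC39A8 had 2.45 and 2.29 TPM (DMSO) against 0.0905 and 0.0891 TPM (I-BET151). It passed the filter only through DMSO, so that it had to differ. SLC39A4, the zinc importer of the intestinal surface, had 159 and 99.4 TPM (DMSO) against 13.6 and 6.80 TPM (I-BET151). SLC39A5, an importer of pancreas, liver and intestine, had 279 and 168 TPM (DMSO) against 43.0 and 35.1 TPM (I-BET151). In the other 10 libraries SLC39A4 did not exceed 12.1 TPM and SLC39A5 did not exceed 50.3 TPM. The alkaline phosphatase genes ALPI and ALPG, whose products need zinc, were at 21.6 and 12.4 TPM and at 17.7 and 11.2 TPM in DMSO, and at most 2.16 and 0.563 TPM in I-BET151. The log2 differences were -3.57 (SLC39A4, adjusted p = 0.0651), -2.45 (SLC39A5, 0.0829), -3.58 (ALPG, 0.0591) and -2.68 (ALPI, 0.0810) with limma, so that none of the 4 passed the threshold. The ranges of the 4 did not overlap, but the share of all genes without overlap was not counted. ALPG passed the filter only through DMSO. SLC39A3, by contrast, had 26.9 and 22.5 TPM (DMSO) against 77.0 and 34.9 TPM (I-BET151), with a log2 difference of 1.05 (adjusted p = 0.377). GPR39, a zinc-sensing receptor, had 14.9 and 13.98 TPM (DMSO) against 0.0371 and 0.0280 TPM (I-BET151), and it was called lower (-3.90, adjusted p = 0.0480). It passed the filter only through DMSO, so that it had to differ, and 0.204% of all genes were called lower. The GPR39 call was lost with a pseudocount of 0.1 or 0.01 and with no filter, where 0 genes were called lower. The summed TPM of the intestine genes CDX2, VIL1 and FABP2 was 459 and 288 in DMSO and 193 and 167 in I-BET151, and its part was not tested. SLC30A5, SLC30A6 and SLC30A7, which supply zinc to alkaline phosphatases, were not called in this comparison.

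ALPL, the alkaline phosphatase of stem cells, was at 173 TPM in hPSC, 102 TPM in DE, 19.9 TPM in PP2 and 21.8 TPM in SC-β, and it stayed under 1 TPM in the 10 libraries of batches 2 and 3. ALPI rose in ePP-β, to 8.14 and 8.501 TPM from at most 0.0373 TPM in the ePPs (log2 difference 3.19, adjusted p = 1.99e-05), and was at 0.582 TPM in SC-β. It passed the filter only through ePP-β.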
